A study of Mus musculus with 6 samples.

Results

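The genes examined here encode the mouse Fc receptors for IgE and IgG, the surface molecules through which basophils and other myeloid cells bind antibodies. They were chosen by name as the 3 chains of the high-affinity IgE receptor (Fcer1a, Ms4a2 and Fcer1g) and the 4 IgG receptors (Fcgr1, Fcgr2b, Fcgr3 and Fcgr4), and all 7 were found among the 37043 gene symbols of the count table. All 7 also had enough reads to be tested, as did 16675 genes in total.

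On basophils and mast cells the IgE receptor FcεRI is built from an alpha chain (Fcer1a) that holds IgE, a beta chain (Ms4a2) that amplifies the signal and helps the receptor reach the surface, and a pair of gamma chains (Fcer1g) whose immunoreceptor tyrosine-based activation motif (ITAM) recruits the kinase Syk once an antigen crosslinks the bound IgE. The gamma chain is shared. It is also needed by the activating IgG receptors FcγRI (Fcgr1), FcγRIII (Fcgr3) and FcγRIV (Fcgr4), and in basophils it is known to associate with the beta subunit of the IL-3 receptor. FcγRIIB (Fcgr2b) stands apart as the inhibitory receptor, which carries an inhibitory motif in its own tail, recruits the phosphatase SHIP-1 and restrains IgE signalling when both receptors are engaged together.

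The samples were bone marrow-derived basophils (BMBAs) of C57BL/6J WT mice. For both groups, marrow was cultured over 7 days with 0.3 ng/mL of a cytokine (IL-3, as the study's methods name it), and cells carrying CD49b were then enriched on beads. The control group received PBS and the other group received 10 ng/mL IL-3, each for 6 h, with 3 libraries per group. The data came from a single experiment with 3 cultures per group, so the p-values measure the spread between these cultures. No source used here says whether the cultures came from separate mice. Whether IL-3 remained in the medium of the PBS group was likewise not stated in those sources. Because the cells were enriched from a mixed culture and measured in bulk, fewer cells of a type and less RNA per cell cannot be told apart for any gene below.

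Library totals ranged from 10537540 to 13999287 counts, and a gene with no read in a library may still have reached up to 0.296 CPM (reads per 1000000 after TMM scaling for library composition) in the shallowest one, a limit that covers counting error only. Basophil markers were abundant in both groups. Mcpt8 and Prss34, which encode basophil proteases, had mean levels of 3070 and 5610 CPM in PBS. Of the 8 basophil markers examined, 7 were called higher in IL-3, against 18% of all genes tested. Calls were made at an adjusted p below 0.05 (edgeR quasi-likelihood test, adjusted over all genes by Benjamini-Hochberg). The 7 included Hdc, Cd200r3, Mcpt8 and Cd244a with log2 fold changes of 1.45, 1.31, 0.94 and 1.35. Markers of other cell types were present too, and their values are given beside the genes they bear on.

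To ask how IL-3 stimulation moved the Fc receptor genes, the 3 IL-3 libraries were compared with the 3 PBS libraries. The chains did not move together. Ms4a2, Fcer1g and Fcgr2b rose, Fcer1a, Fcgr1 and Fcgr4 fell, and Fcgr3 did not pass the test. In all, 3 of the 7 genes were called higher and 3 were called lower, a share of 85.7%, whereas 38.2% of all genes tested were called in either direction, 18% higher and 20.2% lower. The groups did not overlap in 6 of the 7 genes, against 48.2% of all genes tested, with 3 higher (23.8% of all genes) and 3 lower (24.4%). The median log2 fold change was -0.06 over the 7 genes and -0.0033 over all genes tested.

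**Figure D1:**
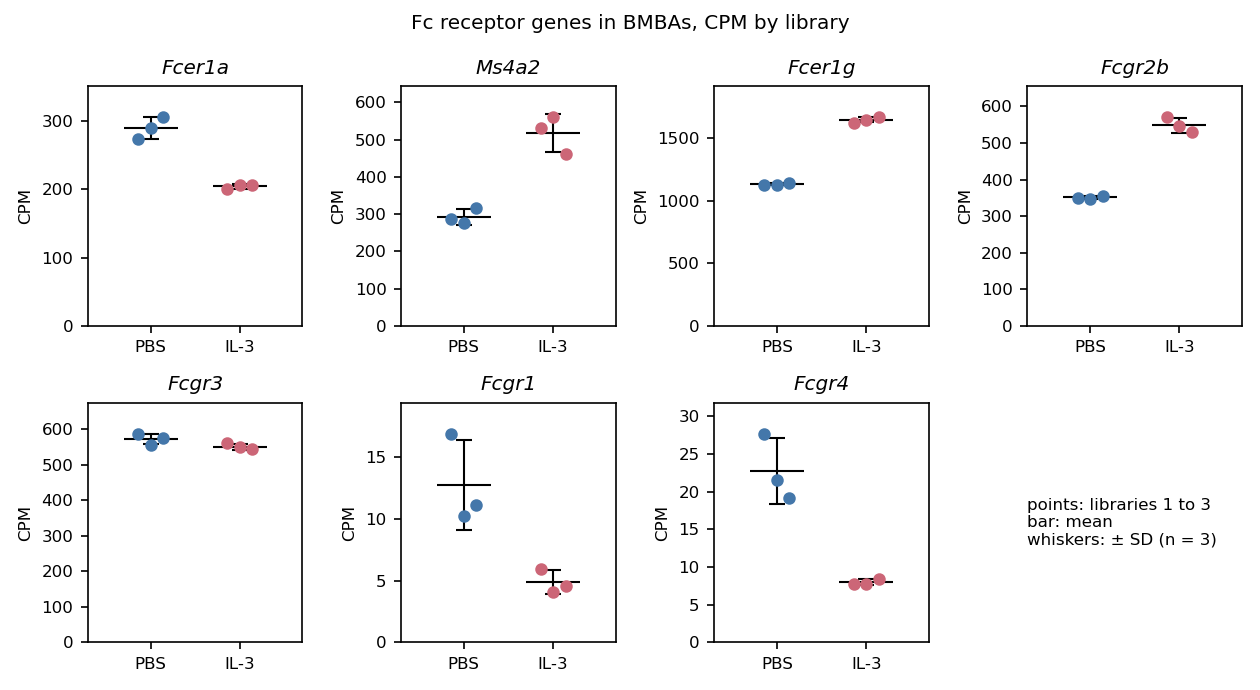
Normalised expression of the 7 Fc receptor genes in CPM (vertical axes from 0, a separate scale for each gene) in 3 PBS and 3 IL-3 libraries. Points are libraries, bars are means and whiskers are ± SD (n = 3). The groups are apart in every panel except that of Fcgr3.

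Among the chains of the IgE receptor, the alpha chain was the only one to fall. Fcer1a (ENSMUSG00000005339, chromosome 1, 173221284 to 173227214, minus strand, GRCm38) was measured at 273.2, 289.1 and 305.1 CPM in the PBS libraries and at 200.2, 206.3 and 205.6 CPM in the IL-3 libraries. All IL-3 libraries lay below all PBS libraries, and the spread within IL-3 was the smaller. The mean went from 289 ± 16.0 to 204 ± 3.32 CPM (SD, n = 3 each), which is 1.42-fold lower, with a log2 fold change of -0.50 (SE 0.0551) and an edgeR adjusted p of 2.38e-06. Fcer1a ranked 349th in expression among the tested genes in PBS and 663rd in IL-3.

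The beta chain moved the other way. Ms4a2 (ENSMUSG00000024680, chromosome 19, 11615523 to 11623719, minus strand) had 287.9, 274.8 and 316.0 CPM in PBS and 531.9, 559.6 and 460.0 CPM in IL-3. The third IL-3 library was the lowest of its group but still well above every PBS library. Its log2 fold change was 0.82 (SE 0.0705, edgeR adjusted p 1.43e-07), a 1.77-fold rise and the largest of the 3 chains.

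The gamma chain was the most abundant Fc receptor transcript and the least variable. Fcer1g (ENSMUSG00000058715, chromosome 1, 171229572 to 171234365, minus strand) had 1127, 1127 and 1140 CPM in PBS and 1626, 1650 and 1668 CPM in IL-3. Libraries of one group hardly differed, and the groups were far apart. The log2 fold change was 0.54 (SE 0.0400, edgeR adjusted p 2.19e-08), a 1.46-fold rise that placed Fcer1g 44th in expression among the tested genes in IL-3.

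Because all 3 chains join one receptor, their read counts were also set against each other within each library, where the scaling between libraries plays no part. In PBS, Fcer1a and Ms4a2 had nearly equal counts, with ratios of 0.949, 1.05 and 0.966. In IL-3 the ratio was 0.377, 0.369 and 0.447, so that each IL-3 library had fewer than 1 Fcer1a read for every 2 Ms4a2 reads. The difference in the log2 ratio was -1.32. The ratio of Fcer1a to Fcer1g went from 0.242, 0.257 and 0.268 to 0.123, 0.125 and 0.123, a difference of -1.04 on the log2 scale. In both ratios the groups did not overlap, and the exact permutation test over libraries gave p = 0.10 (two-sided), which is the smallest value that 3 against 3 libraries allow. The ratio of Ms4a2 to Fcer1g, in contrast, overlapped between the groups, with 0.244 to 0.277 in PBS and 0.276 to 0.339 in IL-3 (difference 0.28, exact permutation p = 0.20). Over the 6 ratios examined in all, the exact p-values adjusted by Benjamini-Hochberg were 0.12 for each of the 5 ratios without overlap and 0.20 for this one. These are ratios of reads and are not corrected for transcript length.

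**Figure D2:**
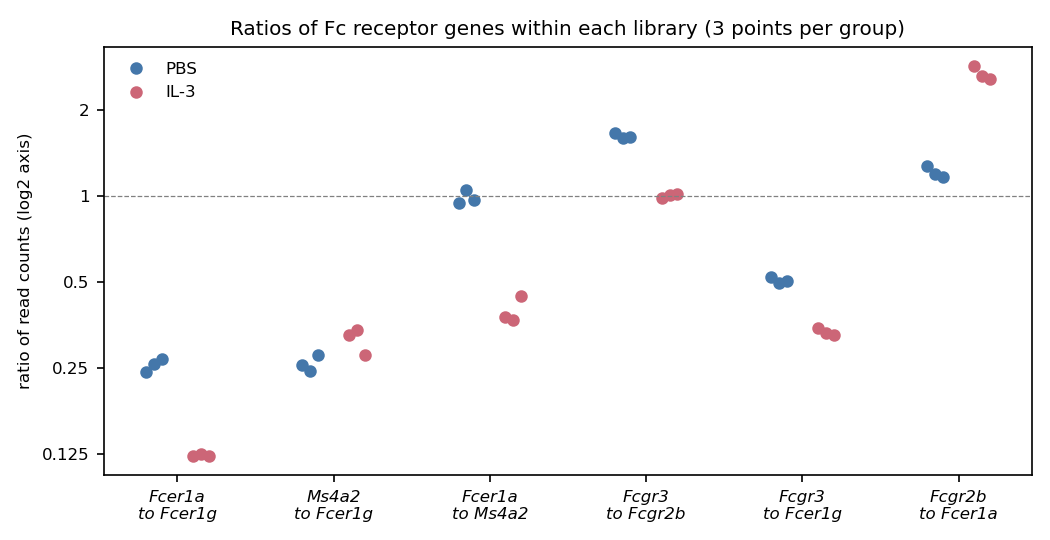
Ratio of read counts of a pair of Fc receptor genes within each library (log2 axis), with 3 PBS and 3 IL-3 points per pair. The Fcer1a to Ms4a2 ratio lies near 1 in PBS and between 0.369 and 0.447 in IL-3, and the Fcgr3 to Fcgr2b ratio lies at 1.60 to 1.67 in PBS and at 0.981 to 1.02 in IL-3.

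As the chains of this single receptor moved apart, the sequences just before their transcription starts are shown. GATA factors are known to act on the alpha and beta chain genes, and matches to AGATAA or TGATAA on either strand are in capitals. The stretches hold the 250 bases before the start that RefSeq annotates (GRCm38.p6, all on the minus strand), at chr1:173227230-173227479 for Fcer1a, chr19:11623720-11623969 for Ms4a2 and chr1:171234350-171234599 for Fcer1g.
Fcer1a: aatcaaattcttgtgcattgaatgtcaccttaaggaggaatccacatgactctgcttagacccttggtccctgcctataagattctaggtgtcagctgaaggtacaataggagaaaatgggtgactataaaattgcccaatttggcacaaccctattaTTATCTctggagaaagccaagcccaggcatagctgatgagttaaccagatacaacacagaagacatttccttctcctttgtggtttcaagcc
Ms4a2: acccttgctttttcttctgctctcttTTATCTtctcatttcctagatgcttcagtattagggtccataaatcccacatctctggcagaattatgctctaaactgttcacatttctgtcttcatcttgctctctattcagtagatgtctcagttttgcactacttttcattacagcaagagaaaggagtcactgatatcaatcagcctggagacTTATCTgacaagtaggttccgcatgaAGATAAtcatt
Fcer1g: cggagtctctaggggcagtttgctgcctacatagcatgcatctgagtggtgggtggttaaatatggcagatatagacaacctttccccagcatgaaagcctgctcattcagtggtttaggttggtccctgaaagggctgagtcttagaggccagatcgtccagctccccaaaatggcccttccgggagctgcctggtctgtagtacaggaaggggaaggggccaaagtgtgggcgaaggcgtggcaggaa
Within these 250 bases and the 50 bases after the start, Fcer1a had 1 match, beginning at position -92 from the start, and Ms4a2 had 3, which began at positions -224, -37 and -11 from it. Neither Fcer1g nor any of the 4 IgG receptor genes had a match in windows of the same length, and 18.6% of the 32851 promoter windows of the reference held at least 1. The PU.1 core GAGGAA, searched on both strands, was found in the windows of Fcer1a, Fcgr1, Fcgr3 and Fcgr4 and in 28.3% of all windows. A STAT motif of the form TTCNNNGAA was found only in that of Fcgr1, at position -109, and in 8.3% of all windows. A match describes the letters and does not show that a factor binds.

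The transcription factors linked to these genes also went both ways. Of 6 such genes, all tested, 2 were called higher and 1 lower, against 18% and 20.2% of all genes tested. Their median log2 fold change was 0.02. Gata2 rose from 799 ± 67.4 to 1520 ± 66.2 CPM (log2 fold change 0.93, edgeR adjusted p 2.73e-09). Gata1 rose by 1.04 on the log2 scale, and Zfpm1, whose product FOG-1 is a cofactor of GATA factors, fell by 0.67. Spi1, which encodes PU.1, had a log2 fold change of -0.03, and those of Elf1 and Yy1 were 0.08 and -0.04. None of these last 3 passed the test. With library totals in place of TMM, 3 of the 6 were called lower and the median was -0.14.

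Fcer1a is also one of the genes by which the study tells pre-basophils from mature basophils, as pre-basophils carry more FcεRIα and CLEC12A and less CD49b and CD9. Beside the fall of Fcer1a, Clec12a was 2.36-fold lower, at 16.4 ± 2.29 CPM in PBS against 6.96 ± 0.791 CPM in IL-3 (SD, n = 3 each), while Cd9 and Itga2 (CD49b) were 1.47-fold and 1.45-fold higher. The groups did not overlap in any of these genes, nor in 48.2% of all genes tested. Pre-basophils are also described by the study as richer in Mcpt8 and Prss34, both chosen here after their values were seen. Mcpt8 was 1.92-fold higher in IL-3, and Prss34 had a log2 fold change of 0.01 and was not called. With library totals Prss34 was called lower, the single call in that direction among the 8 basophil markers, and the other 7 were called higher. What part the mix of pre-basophils and mature basophils has in the fall of Fcer1a was not tested. Mast cells share all 3 chains of the IgE receptor, and of 8 mast cell markers 6 were tested. In IL-3, 4 were called higher and none lower, against 18% and 20.2% of all genes tested. The 4 were Cma1, Tpsb2, Kit and Mitf, with log2 fold changes of 1.31, 1.04, 0.58 and 0.52. Without IL-3 library 3, 1 was called lower. Mcpt4, a mast cell protease named after its values were seen, had a log2 fold change of -0.58 at 2.91 CPM in PBS against 1.93 CPM in IL-3, with overlapping groups, and was not called. The summed level of the list was 365 to 399 CPM in PBS and 712 to 800 CPM in IL-3. Mrgprb2, a defining gene of connective tissue mast cells, had 1 read in the first PBS library and none in the others, which allows up to 0.296 CPM in the shallowest. The part of mast cells in the values of Ms4a2 and Fcer1g was not tested.

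Of the IgG receptors, the inhibitory one rose. Fcgr2b (ENSMUSG00000026656, chromosome 1, 170958617 to 170976547, minus strand) had 350.8, 346.9 and 356.2 CPM in PBS and 570.4, 545.6 and 529.7 CPM in IL-3. The lowest IL-3 library was far above the highest PBS library. Its log2 fold change was 0.64 (SE 0.0486, edgeR adjusted p 3.03e-08), a 1.56-fold rise.

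Fcgr3, the activating IgG receptor that basophils are best known to carry, did not pass the test. Fcgr3 (ENSMUSG00000059498, chromosome 1, 171051174 to 171064935, minus strand) had 586.9, 556.6 and 573.8 CPM in PBS and 559.8, 548.4 and 542.9 CPM in IL-3, and the groups overlapped. The log2 fold change was -0.06 (95% interval -0.15 to 0.04, edgeR adjusted p 0.368). This is the single call among the 7 genes that depended on the scaling, since library totals without TMM gave -0.22 with an adjusted p of 0.00237, at a shift of all genes by a median of -0.17.

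The reads of Fcgr3 and of the inhibitory receptor were also compared within each library. The ratio of Fcgr3 to Fcgr2b reads was 1.67, 1.60 and 1.61 in PBS and 0.981, 1.01 and 1.02 in IL-3, a difference of -0.70 on the log2 scale (exact permutation p = 0.10, the smallest possible). Reads of Fcgr3 also became fewer relative to those of its partner Fcer1g, from 0.494 to 0.521 in PBS to 0.326 to 0.344 in IL-3 (exact permutation p = 0.10). The ratio of Fcgr2b to Fcer1a, the inhibitory receptor against the IgE-binding chain, rose from 1.17 to 1.28 in PBS to 2.58 to 2.85 in IL-3 (difference 1.14, exact permutation p = 0.10).

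Fcgr2b and Fcgr3 arose from a common ancestor, and their transcripts still share stretches that a short read cannot assign. Of the 50-mers of Fcgr3 transcripts, 9.58% also occurred in Fcgr2b, and 2.92% of those of Fcgr2b occurred in Fcgr3. Over all other genes, Fcgr2b shared 4.38% of its 50-mers, with 47 genes in all. The longest shared run is shown because reads lying within it fit both genes. It is 129 bases long, entirely coding, and spans exons 3 and 4 of both, at chr1:170966674-170968081 in Fcgr2b and chr1:171054167-171057792 in Fcgr3 (GRCm38, minus strand, intron not shown).
Fcgr2b and Fcgr3, shared run: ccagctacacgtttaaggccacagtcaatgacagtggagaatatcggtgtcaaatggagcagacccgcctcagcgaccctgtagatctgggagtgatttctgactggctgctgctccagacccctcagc
No source used here says how reads of several origins were assigned, so a small part of the counts of both genes is uncertain. Fcer1a, Fcer1g, Fcgr1 and Fcgr4 shared no 50-mer with another gene, and Ms4a2 shared 2.10%, all with Ms4a4b.

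The remaining IgG receptors were rare and fell the most. Fcgr4 (ENSMUSG00000059089, chromosome 1, 171018920 to 171029761, plus strand), which encodes an activating receptor of monocytes, macrophages and neutrophils, had 27.65, 21.48 and 19.20 CPM in PBS and 7.701, 7.745 and 8.454 CPM in IL-3. No libraries overlapped, and the PBS group was the more scattered. The log2 fold change was -1.51 (SE 0.150, edgeR adjusted p 7.5e-07), which is 2.86-fold lower. Fcgr1 (ENSMUSG00000015947, chromosome 3, 96282909 to 96293969, minus strand), the high-affinity IgG receptor of monocytes and macrophages, had 16.85, 10.17 and 11.10 CPM in PBS and 5.924, 4.081 and 4.576 CPM in IL-3. It was 2.64-fold lower, with a log2 fold change of -1.40 (SE 0.209, edgeR adjusted p 6.22e-05). The first PBS library was the highest for both genes. Without it the log2 fold changes were -1.35 for Fcgr4 and -1.14 for Fcgr1.

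**Figure D3:**
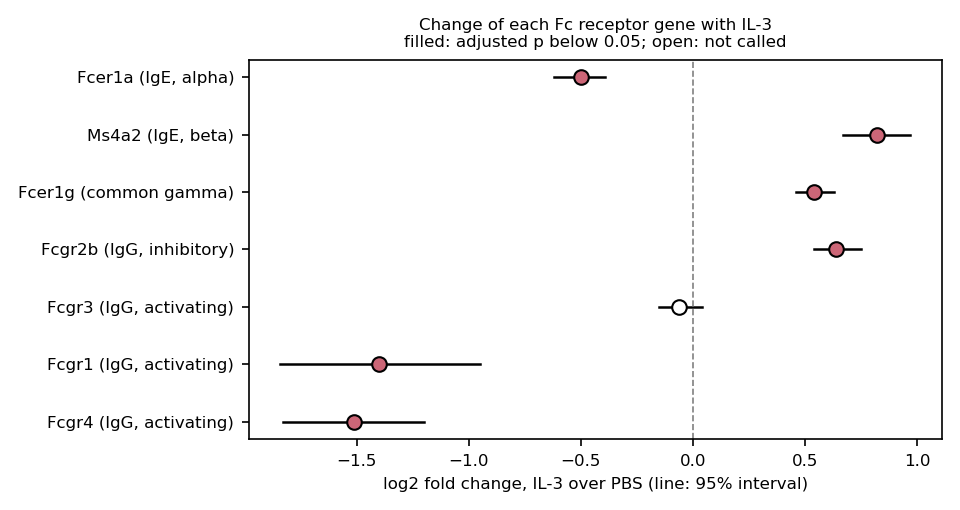
Log2 fold change of each Fc receptor gene (IL-3 over PBS, horizontal axis) with its 95% interval. Filled points have an adjusted p below 0.05, and the open point, Fcgr3 at -0.06, does not.

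Markers of monocytes and macrophages moved in the same direction as Fcgr1 and Fcgr4. All 12 markers on the list were tested, with a median log2 fold change of -0.94. Of these, 9 were called lower and 2 higher, against 20.2% and 18% of all genes tested, and 1 was not called. The summed level of the list was 12100 to 13100 CPM in PBS and 6320 to 6960 CPM in IL-3. Lyz2 (lysozyme) and C1qb and C1qc (complement) had log2 fold changes of -0.97, -1.06 and -1.09, while Ly6c2 and Adgre1, the markers called higher and named after their values were seen, had 1.29 and 0.53. No defining marker of this list was at 0. What part these cells have in the values of Fcgr1 and Fcgr4, and of Fcer1g, Fcgr2b and Fcgr3, which macrophages also express, was not tested. Of 10 neutrophil markers 7 were tested, and they went both ways. Of these, 2 were called higher and 1 lower, against 18% and 20.2% of all genes tested. Log2 fold changes were 2.61 for Retnlg and -0.63 for Mpo. The summed level was 85.9 to 119 CPM in PBS and 141 to 207 CPM in IL-3. The other marker called higher was Ly6g, which passed the filter on low counts only through the IL-3 group, with 0, 4 and 2 reads in PBS against 23, 35 and 22 in IL-3, so that its call is no support for a change in the list. The number of neutrophil markers called ranged up to 6 higher without the filter on low counts and up to 3 lower without the second PBS library.

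Few reads came from markers of NK cells and B cells, which are known to carry FcγRIII and FcγRIIB respectively, or of dendritic cells. The 6 NK cell markers summed to 0.793 to 1.31 CPM in PBS and 0.691 to 1.83 CPM in IL-3, none passed the filter on low counts, and Gzma and Klra8 had no read in any library. The 5 B cell markers summed to 6.22 to 9.07 CPM in PBS and 3.91 to 6.52 CPM in IL-3, of which 1, Cd79b, was called lower (log2 fold change -1.06) although its groups overlapped. No B cell marker was called lower with limma-voom or without PBS library 2 or 3 or IL-3 library 1 or 2. The 6 dendritic cell markers summed to 11.0 to 13.2 CPM in PBS and 7.33 to 8.76 CPM in IL-3, with Clec9a called lower (-1.29) and Cd209a without a read.

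To set levels of different genes side by side, CPM was divided by the length of all exons of each gene in kilobases. On this scale the order in PBS was Fcer1g at 1290 ± 8.57, Fcgr3 at 330 ± 8.76, Fcer1a at 290 ± 16.0, Ms4a2 at 104 ± 7.48, Fcgr2b at 60.7 ± 0.806, Fcgr4 at 18.1 ± 3.48 and Fcgr1 at 4.91 ± 1.40 CPM per kilobase (SD, n = 3). The ranges of neighbours in this order did not overlap between libraries. In IL-3 the order was the same, with Fcer1g at 1890 ± 23.7, Fcgr3 at 317 ± 4.97, Fcer1a at 204 ± 3.33, Ms4a2 at 184 ± 18.3, Fcgr2b at 94.7 ± 3.54, Fcgr4 at 6.34 ± 0.337 and Fcgr1 at 1.88 ± 0.368 CPM per kilobase. Here Fcer1a and Ms4a2 differed by about the spread of Ms4a2 between libraries. Dividing by the longest transcript instead put the IL-3 mean of Ms4a2 ahead, at 216 ± 21.5 against 204 ± 3.33. The third IL-3 library went the other way, at 192.4 for Ms4a2 against 206.0 for Fcer1a. Without any division, Fcgr2b in PBS lay above Ms4a2 and Fcer1a, at 351 CPM against 293 and 289 CPM. No source used here says how evenly reads cover a transcript, so the order per kilobase may not be that of transcript numbers.

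**Figure D4:**
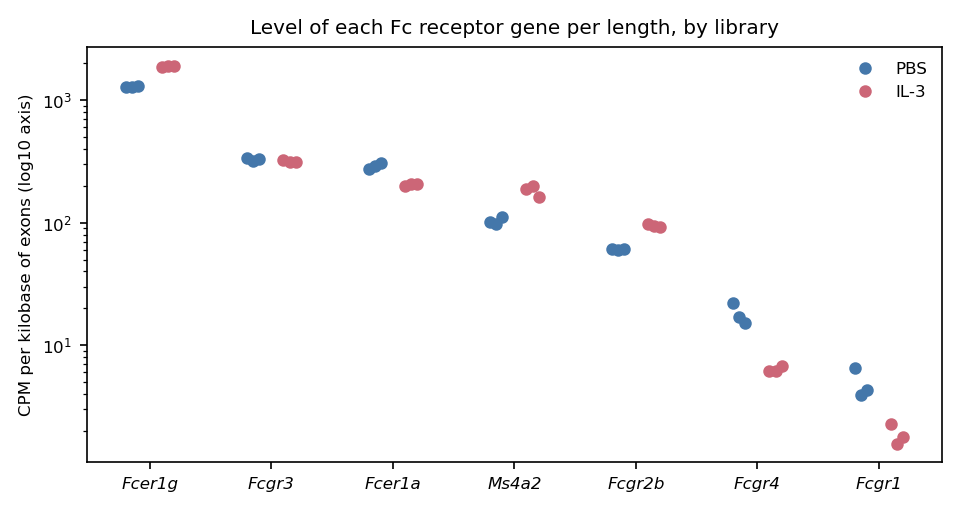
Level of each Fc receptor gene in CPM per kilobase of exons (log10 axis), by library, ordered by the PBS mean. Fcer1g is highest at 1290 in PBS and 1890 in IL-3, and Fcer1a and Ms4a2 come close to each other in IL-3.

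Position on the chromosome did not go with the direction of change. Fcgr2b, Fcgr4 and Fcgr3 lie next to each other on chromosome 1, with gaps of 42.4 kb and 21.4 kb between them, and had log2 fold changes of 0.64, -1.51 and -0.06. Fcer1g lies 165 kb beyond Fcgr3. Tomm40l, a tested neighbour at a distance of 7058 bp, was called lower (log2 fold change -0.64, edgeR adjusted p 0.00397), opposite to Fcer1g. Fcer1a is 1990 kb further on, and its nearest tested neighbours, Gm2710 and Aim2, were not called (-0.02 and -0.09). Ms4a2 lies on chromosome 19 between Ms4a6d, which was not called (0.09), and Ms4a3, another gene of the family, which fell by 0.72 (edgeR adjusted p 0.00892). Cfap126, beyond Fcgr3, fell by 1.34 at under 2 CPM, and Gm2962 before Fcgr2b (0.09) and Gm20628 and Rnu1b1 around Fcgr1 (-0.19 and 0.49) were not called. Overlapping annotated genes (Gm38204, Mir6546 and Gm26110) had measured levels of at most 0.197 CPM.

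Outside the 7 genes, the other receptors for antibody and their relatives mostly had few reads. Of 12 such genes 5 passed the filter on low counts, with 1 called higher and 1 lower, against 18% and 20.2% of all genes tested. Pigr, which encodes the transporter of polymeric IgA and IgM, was 2.72-fold higher at 17.0 CPM in PBS against 46.3 CPM in IL-3. Fcgrt, the neonatal receptor that recycles IgG, was 1.51-fold lower at 12.4 and 8.25 CPM. Fcer2a, the low-affinity IgE receptor of B cells, did not pass the filter on low counts.

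Genes that work with the gamma chain also split. Of 7 receptors that pair with it, 5 were tested, with a median log2 fold change of -0.55. Of these, 1 was called higher and 3 lower, against 18% and 20.2% of all genes tested. The number called lower was 4 in 8 of the 14 alternatives, the replicate block among them, and the median was -0.29 without the filter on low counts. Gp6, a collagen receptor named after its values were seen, was not called (log2 fold change -0.55, edgeR adjusted p 0.0504), and its groups overlapped. Csf2rb, the beta subunit of the IL-3 receptor, rose from 1780 ± 35.1 to 4460 ± 113 CPM (log2 fold change 1.33, edgeR adjusted p 2.29e-13). The C-type lectin receptors Clec4d, Clec4n and Clec4e, which sense microbial sugars and lipids, had log2 fold changes of -1.50, -0.70 and -0.31 and were all called lower. Of 5 other signalling adaptors, Hcst and Tyrobp were called higher and Cd79b was called lower, with values of 0.96, 0.30 and -1.06. Tyrobp encodes DAP12, the other main ITAM adaptor of myeloid cells, and had 1680 CPM in PBS against 2070 CPM in IL-3. Cd79b is the B cell gene whose call was lost under the alternatives named above.

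Downstream of the receptor, 22 genes of proximal activation were all tested, with a median log2 fold change of 0.12. Of these, 10 were called higher and 5 lower, against 18% and 20.2% of all genes tested. The smallest adjusted p belonged to Pik3cd, a subunit of PI3 kinase, which was 5.96-fold higher, followed by Tec, a kinase (3.72-fold), Lcp2, the adaptor SLP-76 (3.61-fold), and Gab2, an adaptor (2.21-fold). The kinases that act first, chosen after their values were seen, did not follow. Lyn and Syk had log2 fold changes of -0.08 and 0.04 and were not called, and Fyn fell by 0.37. With library totals 8 genes of this list were called higher and 7 lower, and the median turned to -0.05.

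Of 10 negative regulators (median -0.03), 4 were called higher and 2 lower, against 18% and 20.2% of all genes tested. Dok2, an adaptor that dampens kinase signals, was 3.80-fold higher, Pag1 and Csk, which act together to restrain Src family kinases, were 2.06-fold and 1.36-fold higher, and Dok1 was 1.34-fold lower. Inpp5d, the gene of SHIP-1 that the inhibitory receptor recruits, was chosen after its values were seen and had a log2 fold change of 0.01 (edgeR adjusted p 0.893). The number called lower was 5 with library totals and 1 with the DESeq2 Wald test.

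**Figure D5:**
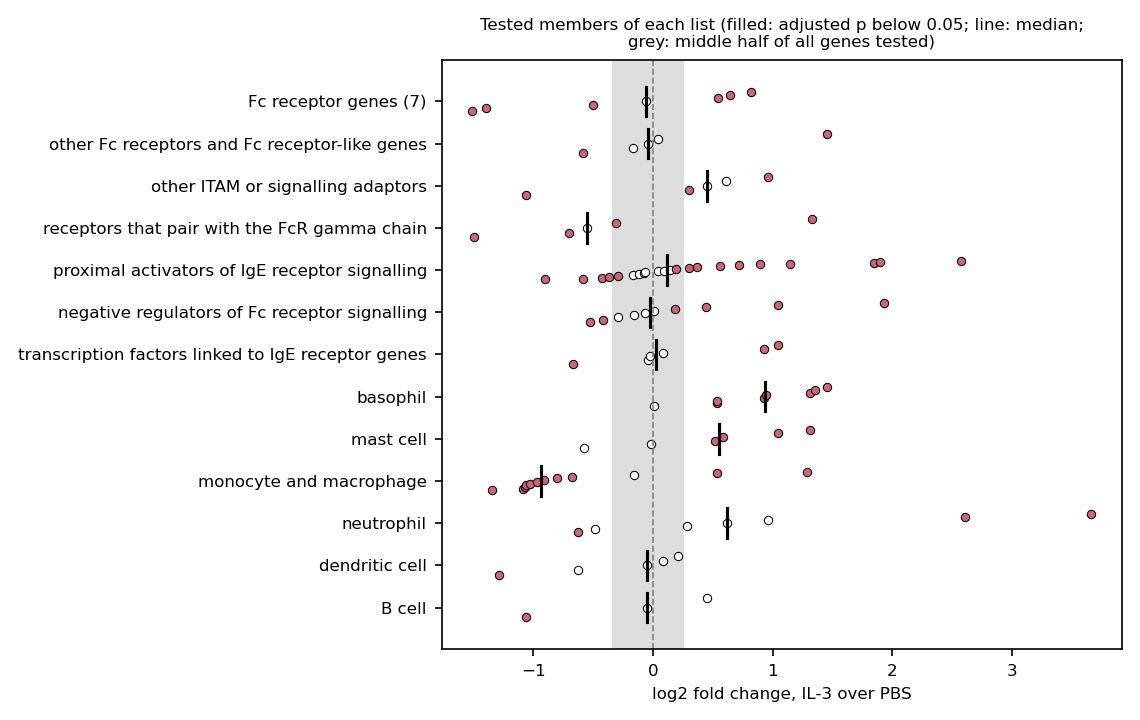
Log2 fold change (IL-3 over PBS) of the tested members of each list. Filled points have an adjusted p below 0.05, vertical lines are medians and the grey band runs from -0.34 to 0.25, the lower and upper quartiles of all genes tested. Of the Fc receptor genes 3 lie above the band, 3 below it and Fcgr3 inside it, and the monocyte and macrophage markers centre on -0.94.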

How the data were processed

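Bulk RNA-seq of 6 BMBA libraries (3 PBS, 3 IL-3) was used. The authors deposited a single table of raw read counts per gene symbol. According to the study's methods, poly(A) RNA was copied on oligo-dT beads and amplified as cDNA, reads were trimmed with Cutadapt and mapped with Bowtie2 to reference RNA, and reads were counted per gene. The submitters' processing notes name cutadapt 3.4 and the build GRCm39, while the methods name GRCm38. The labels give a column kit for the RNA and the methods a direct lysis. Coordinates here are from GENCODE M21 (GRCm38), which held 96.12% of the symbols, and promoters are from RefSeq (GRCm38.p6). No molecular identifiers are described, so PCR copies count as reads, and differences in transcript choice or in reads of several origins would change the counts of related genes. The column names spell the treatment differently from the sample titles but match them by group and number.

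The counts were tested in edgeR 4.0.16 under R 4.3.3, after filterByExpr and TMM scaling, by the quasi-likelihood test in a model holding the group alone. P-values were adjusted by Benjamini-Hochberg over 16675 genes and called below 0.05. SE was derived from the F value and 95% intervals from SE and its degrees of freedom. CPM is TMM-scaled and given as mean ± SD. Ratios within a library added 1 count to both genes and were compared by a two-sided exact permutation test (scipy 1.17.1). Named genes were the 7 receptor genes, from each list the called genes up to the 4 of smallest adjusted p, the nearest tested genes on each side, the genes most like the IgE receptor chains over the 6 libraries, and Clec12a, Cd9 and Itga2. Some genes that this rule names are not reported here. The members and lists were chosen with earlier results of these data known. On simulated counts of the PBS and IL-3 libraries (16681 genes), 99.5% of 200 genes changed 2-fold were called, 100% with the right sign, and 0.0485% of unchanged genes were called. The changed genes were drawn from genes with higher counts only, as many raised as lowered, and every gene had the same dispersion. In the data 38.2% of genes were called, so these shares are not error rates of the real calls. They cannot show how often low-count genes or smaller changes are called. Alternatives were DESeq2 1.42.0 size factors and Wald test, library totals, iterated TMM, other filters, limma-voom (limma 3.58.1), a replicate block, other pseudocounts, the longest transcript as gene length, and leaving out each library.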

Additional observations from a re-analysis of the deposited data

How the results depend on the processing

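The 7 receptor genes kept their direction under all 14 alternatives run for each of them, and 6 of the 7 kept their call. The exception was Fcgr3, which library totals moved to -0.22 (adjusted p 0.00237), a scaling that shifted all genes by a median of -0.17 and left 1698 genes called higher. With 1 library left out, log2 fold changes ranged from -0.54 to -0.46 for Fcer1a, 0.76 to 0.90 for Ms4a2, 0.54 to 0.55 for Fcer1g, -1.56 to -1.14 for Fcgr1, 0.61 to 0.67 for Fcgr2b, -0.08 to -0.04 for Fcgr3 and -1.62 to -1.35 for Fcgr4, and 2482 to 2787 genes were called higher and 2883 to 3108 lower. Library totals gave 5030 genes called lower, so that the split of higher against lower calls moved toward lower. The 6 ratios kept their sign in all 8 alternatives run for each.

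The replicate numbers gave no sign of pairing, as deviations of same-numbered libraries correlated at -0.0087, -0.016 and -0.022. With the number as a replicate block, 2842 genes were called higher and 3247 lower, and no call among the 7 genes changed, with log2 fold changes of -0.50 for Fcer1a, 0.82 for Ms4a2 and -0.06 for Fcgr3.

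Of 532 values of gene lists under alternatives, 36 moved, with 6 each under library totals, on leaving out PBS library 2 and on leaving out IL-3 library 2, and the cause was not tested. Dividing by the longest transcript moved 8 of 14 levels per kilobase. At these depths Fcer2a and all 6 markers of NK cells fell under the filter on low counts.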

Other observations

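The genes whose log2 CPM over the 6 libraries was most like that of the IgE receptor chains were looked for among 6693 genes with a mean of at least 20 CPM. Pearson's r is given as a description over 6 libraries that share the same pair of treatments, and any gene with a steady difference between the groups scores high. Closest to Fcer1a were Gngt2 (r = 0.9996, from 57.2 CPM in PBS to 33.6 CPM in IL-3) and Gadd45g (r = 0.9994, from 42.2 to 18.6 CPM). Closest to Ms4a2 were Prkag1 (r = 0.9995) and Dnajb6 (r = 0.9988), with log2 fold changes of 0.40 and 0.53. As for Ms4a2, the lowest IL-3 library of both was the third. Closest to Fcer1g were Csf2rb2 and Srgn (both r = 0.9999), with log2 fold changes of 1.66 and 1.34. Srgn encodes serglycin, the proteoglycan core of secretory granules, and Csf2rb2 encodes a beta subunit of the mouse IL-3 receptor that is similar in sequence to Csf2rb. The number of genes with r above 0.95 was 531 for Fcer1a, 826 for Ms4a2 and 1091 for Fcer1g.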
